A study of Homo sapiens with 2 samples.

Results

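The AP1 factors are dimeric transcription factors of the JUN, FOS and BATF families. Their 10 genes, JUN, JUNB, JUND, FOS, FOSB, FOSL1, FOSL2, BATF, BATF2 and BATF3, were analysed by name in the cell line SU-DHL-1, and every probe set that the annotation of the array (Affymetrix HG-U133 Plus 2.0) assigned to exactly 1 of them was used. All 10 genes were found, with 20 of the 41091 probe sets that carried a single gene name and 10 of the 19775 genes. SU-DHL-1 is a long-established line grown from an anaplastic large cell lymphoma (ALCL), a CD30-positive lymphoma of T cells, and it carries the fusion gene NPM1-ALK. Cells were electroporated with a commercial negative control siRNA (siCTR) or with one directed at HLX, an NKL homeobox gene (siHLX), and harvested within a day, and 1 array was hybridised per siRNA. Both groups therefore share the cell line, its fusion gene and the electroporation, and no untransfected cells were analysed here. The comparison asks how the AP1 genes read after treatment with the siRNA for HLX.

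An AP1 dimer holds a pair of basic leucine zipper (bZIP) proteins that grip DNA together. JUN proteins can pair with each other or with FOS proteins, FOS proteins need a partner, and BATF proteins, which lack the activation domain of FOS, pair with JUN proteins and act with IRF factors on composite sites in lymphocytes. FOS, FOSB, JUN and JUNB are immediate early genes, switched on shortly after MAP kinases are activated. In ALCL, JUN, JUNB and BATF3 are known to be highly active.

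The sequences in front of 5 AP1 genes are shown because AP1 genes are known to be read through elements that bind bZIP proteins, so that the family can act on its own members. They come from RefSeq (GRCh38.p14) and run from 250 bases before to 50 bases after the start of the gene, 5′ to 3′ on the strand of the gene. Capitals mark the AP1 element TGACTCA, the cAMP response element TGACGTCA, its variant TGACATCA, the core TGACG on either strand (CGTCA where it lies on the other strand), which is part of TGACGTCA, and the TATA box TATAAA.
JUN, chr1:58783998-58784297, minus strand: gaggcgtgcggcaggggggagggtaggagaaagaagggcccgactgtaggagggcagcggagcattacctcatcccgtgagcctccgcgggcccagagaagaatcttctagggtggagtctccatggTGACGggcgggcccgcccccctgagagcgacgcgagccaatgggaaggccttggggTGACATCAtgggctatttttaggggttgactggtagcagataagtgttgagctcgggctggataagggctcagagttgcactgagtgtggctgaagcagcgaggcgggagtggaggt
JUND, chr19:18281573-18281872, minus strand: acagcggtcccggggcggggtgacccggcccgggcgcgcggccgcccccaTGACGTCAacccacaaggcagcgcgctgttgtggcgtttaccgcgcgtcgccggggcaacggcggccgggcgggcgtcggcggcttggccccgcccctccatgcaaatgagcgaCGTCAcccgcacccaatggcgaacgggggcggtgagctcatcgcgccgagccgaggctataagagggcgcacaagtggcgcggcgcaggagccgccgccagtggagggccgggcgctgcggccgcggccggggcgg
FOSL2, chr2:28392608-28392907, plus strand: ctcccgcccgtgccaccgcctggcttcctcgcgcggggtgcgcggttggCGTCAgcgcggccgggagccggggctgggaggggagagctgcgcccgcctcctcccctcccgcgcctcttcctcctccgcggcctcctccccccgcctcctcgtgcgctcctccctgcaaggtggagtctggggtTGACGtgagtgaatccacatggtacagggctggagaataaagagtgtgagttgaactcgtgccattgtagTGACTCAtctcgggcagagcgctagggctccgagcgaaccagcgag
FOS, chr14:75278578-75278877, plus strand: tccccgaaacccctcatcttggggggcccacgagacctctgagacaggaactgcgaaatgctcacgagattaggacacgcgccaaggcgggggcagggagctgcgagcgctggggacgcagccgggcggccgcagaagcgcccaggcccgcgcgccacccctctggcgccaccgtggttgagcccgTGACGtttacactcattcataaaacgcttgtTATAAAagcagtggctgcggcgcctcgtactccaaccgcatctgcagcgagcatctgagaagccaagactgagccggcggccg
FOSB, chr19:45467746-45468045, plus strand: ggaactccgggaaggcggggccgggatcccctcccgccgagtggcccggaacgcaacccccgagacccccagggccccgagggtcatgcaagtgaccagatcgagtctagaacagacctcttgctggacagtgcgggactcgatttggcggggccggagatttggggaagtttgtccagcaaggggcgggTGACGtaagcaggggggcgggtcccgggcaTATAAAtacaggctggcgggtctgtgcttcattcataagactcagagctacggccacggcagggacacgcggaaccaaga
Of the 10 genes, 8 had a promoter in this table, and BATF3 and FOSL1 did not. The letters TGACTCA were found in FOSL2 only, where they start at base 5 after the start site, and in 4.95% of all 35116 promoters of this length. TGACGTCA was found in JUND only, at base -200, and in 1.85% of all promoters. JUN and BATF2 held TGACATCA, against 2.61% of all promoters. The core TGACG, which was added after the sequences had been read, stood in 6 of the 8 promoters, those of JUN, JUNB, JUND, FOS, FOSB and FOSL2, against 24.6% of all promoters. Because it was picked from these same sequences, that count cannot show an excess. TGACG also holds a CpG, and these 6 promoters held 16 to 49 CpG, against a median of 14 over all promoters. TATAAA started at base -33 in FOS, -30 in FOSB and -31 in JUNB. Its share of all promoters, 11.5%, counted any position in the window and either strand, as did the other shares given here. The STAT element TTCNNNGAA (7.66% of all promoters) and the serum response element (1.29%) were in 0 of the 8 windows. Such a match is a run of letters and not a measured binding site, and a window without a match says nothing about the factor. The promoters of BATF and BATF2, not shown, lay below the medians of all promoters, 14 CpG and a GC content of 58.7%. BATF had 7 CpG and 46.0%, and BATF2 had 9 CpG and 55.7%, against 49 CpG and 77.0% in JUND.

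HLX, the target of the siRNA, read 8.15 with siCTR and 7.70 with siHLX on its only probe set. This is -0.45 on the log2 scale, or 0.73 times the siCTR reading, and 1.59% of the 3700 like-level probe sets lay at least as far down. The value is relative to the bulk of genes. Poly-A spike controls had a mean difference of -0.29, so scaling to them would make the drop of HLX smaller. All values here are log2 intensities after RMA background correction and quantile normalisation, and a difference is siHLX minus siCTR, so that -1 is a 2-fold lower reading. With 1 array per siRNA there was no replicate, so no difference has a test or a replicate error, and the number of arrays limits the precision. As a yardstick, each difference is set beside the SD of the differences of all named probe sets whose level lay within 0.5 log2 units. This SD mixes technical noise with any response of other genes. The level threshold was 4.865, the median of all probe sets, and 12135 of all 19775 genes passed it by their brightest probe set. Of the ALCL markers, 7 of 7 did so (TNFRSF8, ALK, IL2RA, MUC1, GZMB, PRF1 and TIA1). Their levels ran from 6.41 for MUC1 to 13.4 for GZMB. The dimmer probe sets of MUC1, at 4.74 and 4.245, lay below the threshold. Among readable markers of other cells, 2 of 4 of B cells, 1 of 4 of myeloid cells, 3 of 3 of erythroid cells and 3 of 5 of epithelial or stromal cells also lay above the threshold. The brightest were COL1A1 at 7.53, KRT18 at 7.12 and CD79A at 6.69, above MUC1 and below the other 6 ALCL markers.

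BATF3 was the brightest AP1 gene in these ALCL cells. It read 12.48 with siCTR and 12.41 with siHLX (220358_at), brighter than 99.3% of all probe sets. BATF followed with 10.79 and 10.81 (205965_at). FOSL2, the FOS relative also known as FRA2, read 10.53 and 10.58 on its brightest probe set, 228188_at. JUND, which encodes a JUN protein found in most resting cells, read 10.29 and 10.36 (203752_s_at). JUNB came next with 9.29 and 9.20 (201473_at), and JUN with 9.17 and 9.11 (201464_x_at). The mean level of each of these 6 genes lay above that of at least 90.3% of all probe sets. Among all genes, each by its brightest probe set, they lay above at least 82.8%, the share for JUN. The other 4 genes read 6.81 or less on either array. FOSL1, known as FRA1, read 6.81 and 6.68 (204420_at), and FOS itself 5.87 and 5.84 (209189_at). BATF2 read 5.57 and 5.16 (228439_at), and FOSB 4.74 and 5.23 (202768_at). FOSB was thus below the level threshold with siCTR and above it with siHLX, and 52.1% of all probe sets were dimmer than its mean level. Among all genes, each by its brightest probe set, 40.7% were dimmer than FOSB.

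This is an order of probe set readings and not of transcript amounts, because each probe set binds its target with its own strength and intensities are not given per transcript length. The probe sets of a single gene show how far this goes. The 4 probe sets of JUN had mean levels from 6.27 to 9.14, those of FOSL2 (5 probe sets) from 6.24 to 10.56, and those of JUND (4 probe sets) lay up to 6.33 log2 units apart. Over all genes with several probe sets above the threshold, the pooled SD of the level between probe sets of a gene was 1.46. The steps between neighbours in the order were between 0.11 and 1.08 from BATF to JUN and from FOSL1 to FOSB. They were wider from BATF3 to BATF (1.65) and from JUN (9.14) to FOSL1 (6.75). Every step was smaller than the 6.33 between probe sets of JUND alone, so no neighbours in the order are set apart by these readings. The order was the same on both arrays except at its end, where BATF2 lay above FOSB with siCTR and below it with siHLX.

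**Figure D1:**
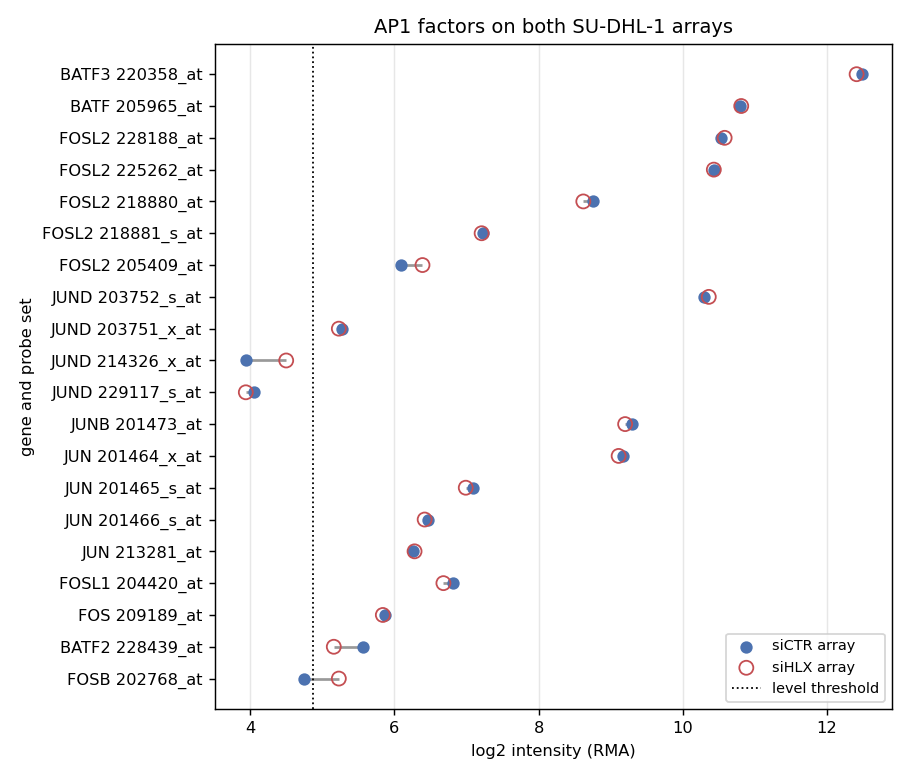
Log2 intensity (x axis) of the 20 probe sets of the AP1 genes (y axis) on the siCTR array (filled circles) and the siHLX array (open circles), with 1 array each and no error bars; the dotted line is the level threshold of 4.865. BATF3 lies at 12.48 and 12.41, the circles overlap for most bright probe sets, and probe sets of the same gene lie up to 6.33 log2 units apart in JUND.

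None of the AP1 genes differed by 1.5-fold between the arrays on the deposited scale, while FOSB (0.78) did with scaling to the poly-A controls. Taking the brightest probe set of every gene, 4 genes read higher and 6 lower with siHLX, and the differences ran from -0.41 for BATF2 to 0.49 for FOSB, with a median of -0.05. Over all 12135 genes above the level threshold, 47.4% read higher and 50.2% lower, with a median of -0.01. All 10 AP1 genes passed this threshold on their brightest probe set, as did 12135 of all 19775 genes. Of the AP1 genes, 0 differed by 2-fold or more, against 0.832% of all genes above the threshold. At 1.5-fold the count was also 0 of 10, against 5.04% of all genes. These values are relative to the bulk of genes: when the poly-A spike controls (24 probe sets, mean difference -0.29, SD 0.18) were set equal on the arrays, the median of all genes moved from -0.01 to 0.28 and that of the AP1 genes to 0.24, with 9 genes higher and 1 lower. Relative to the median of all genes, the AP1 median was -0.04 with either scaling.

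The 6 bright genes include BATF3, JUNB and JUN, which are known to be active in ALCL. Their differences lay between -0.09 for JUNB and 0.07 for JUND, or ratios of 0.94 and 1.05, relative to the bulk of genes. Of the 8411 named probe sets at a mean level of 8 or more, 49.5% differed by more than the 0.09 of JUNB. BATF3 had -0.07, where probe sets of like level had an SD of 0.08. BATF, the partner of JUN proteins in T cells, had 0.02, beside an SD of 0.13. FOSL2 had 0.05 on its brightest probe set, also beside an SD of 0.13. JUNB and JUN (-0.06) lay beside an SD of 0.16 each. All 6 thus lay within 1 SD of probe sets of like level, and a difference inside that spread cannot be told from it. Between 41.6% (BATF3) and 91.7% (BATF) of like-level probe sets differed at least as far in either direction.

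Of the 4 dim genes, BATF2, FOSB and FOSL1 differed by more than any bright gene and FOS did not, at levels where all genes scattered more. BATF2, a family member induced by interferon, had -0.41, a ratio of 0.75, and 17.1% of the 5529 like-level probe sets lay at least as far down. FOSB, an immediate early gene, had 0.49, a ratio of 1.40, and 15.2% of the 6331 like-level probe sets lay at least as far up. The SD at these levels was 0.44 and 0.48. FOS and FOSL1 differed by -0.03 and -0.13, well inside their SDs of 0.38 and 0.27. BATF2, FOSB, FOS and FOSL1 had 1 probe set each, so no other reading of these genes was at hand. The opposite signs of FOSB and BATF2 therefore rest on 1 dim reading each.

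**Figure D2:**
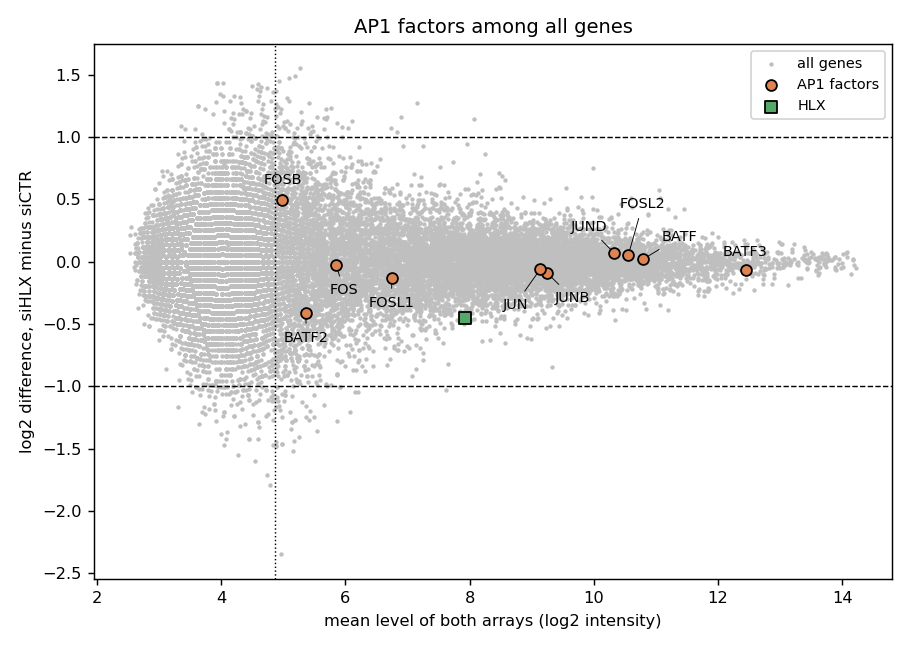
SiHLX minus siCTR in log2 units (y axis) plotted over the mean log2 intensity (x axis) for all 19775 genes by their brightest probe set (grey), the 10 AP1 genes (orange) and HLX (green square); 2-fold is dashed and the level threshold dotted. The 6 bright AP1 genes lie between -0.09 and 0.07, FOSB at 0.49 and BATF2 at -0.41 lie where the grey cloud is wide, and all positions are relative to the bulk of genes.

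Further probe sets gave repeat readings of the same RNA for JUN, JUND and FOSL2. JUN, the founding member of the family, read lower on 3 of its 4 probe sets: 201464_x_at went from 9.17 to 9.11, 201465_s_at from 7.09 to 6.99 and 201466_s_at from 6.46 to 6.42, whereas 213281_at read 6.26 with siCTR and 6.28 with siHLX. The mean difference of JUN was -0.05 with an SD of 0.05 between its probe sets. That SD is technical and says nothing about other cultures. JUND was less even. Its bright probe set had 0.07 and 203751_x_at, at a level of 5.25, had -0.04. Both other probe sets lay below the level threshold, with 0.56 on 214326_x_at (3.94 with siCTR, 4.50 with siHLX) and -0.11 on 229117_s_at (4.05 and 3.94). The value of 0.56 was the largest among the 20 AP1 probe sets, and 11.7% of the 8453 like-level probe sets lay at least as far up.

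FOSL2 had the most probe sets, and they did not share a direction. The brightest ones, 228188_at and 225262_at, had 0.05 and 0.0 (10.43 on both arrays). 218880_at went from 8.76 to 8.62, a difference of -0.14, and 218881_s_at from 7.23 to 7.21. The dimmest, 205409_at, went from 6.09 to 6.39, a difference of 0.30. The mean was 0.04 with an SD of 0.16 between probe sets, smaller than the pooled SD of 0.27 between probe sets of a gene over the whole array. The suffix _s_at marks probe sets that bind several transcripts and _x_at those with probes that may bind other genes. The bright readings of JUN and JUND carry these suffixes, and without such probe sets JUN is left with 213281_at and JUND with none.

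By family, the 9 probe sets of JUN, JUNB and JUND had 3 higher and 6 lower readings with siHLX and a median of -0.04, relative to the bulk of genes. The 8 probe sets of the FOS family had 3 higher, 4 lower and 1 equal, with a median of -0.01, and the 3 of the BATF family 1 higher and 2 lower, with a median of -0.07. Over all 20 probe sets, 7 read higher and 12 lower, with a median of -0.04, against 46.8% higher and 49.4% lower of all named probe sets. Of the 20, 18 lay within 1 SD of the differences of like-level probe sets. The exceptions were FOSB, at 0.49 beside an SD of 0.48, and the dim probe set of JUND. At the level of FOSB, 29.8% of like-level probe sets differed by at least 0.49 in either direction. Among the 8 AP1 probe sets at a mean level of 8 or more, the differences ran from -0.14 to 0.07 and all 8 lay within that SD. The share of all named probe sets inside such an SD was not counted. These counts therefore cannot show that AP1 probe sets were steadier than others. On the deposited scale none of the 20 reached 1.5-fold, against 9.51% of all named probe sets. Probe sets of the same gene are not independent, so these counts describe readings and not genes.

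**Figure D3:**
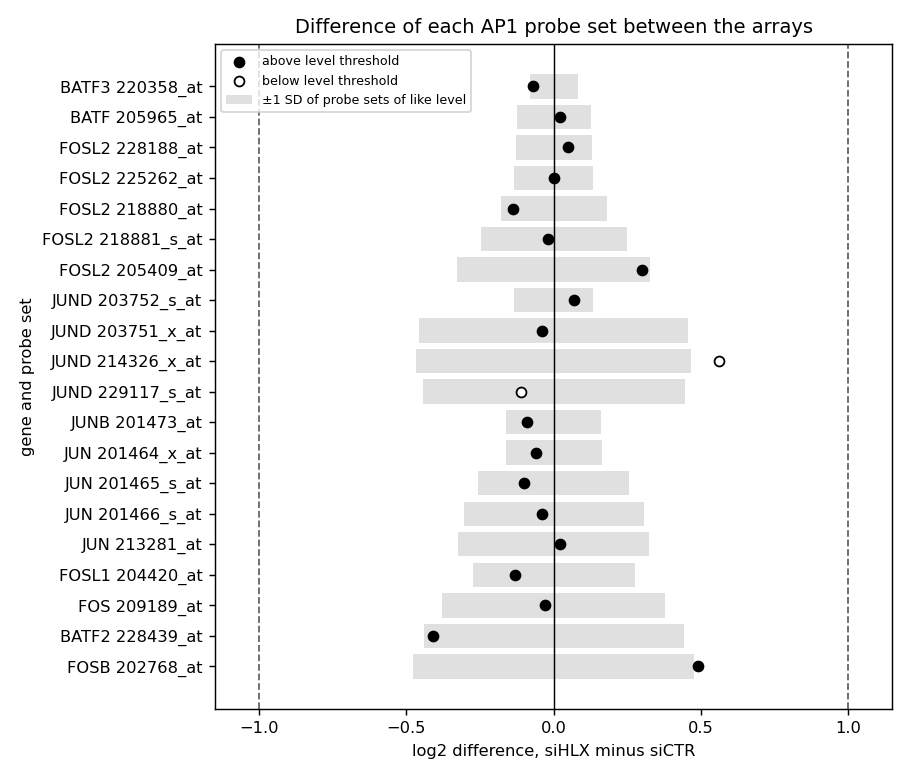
SiHLX minus siCTR in log2 units (x axis) for each of the 20 AP1 probe sets (y axis, in the order of gene level); filled circles are probe sets above and open circles those below the level threshold, grey bars give 1 SD of the differences of like-level probe sets to either side of 0, and dashed lines mark 2-fold. Values are taken relative to the bulk of genes. The bars widen as the level falls to that of FOSB (SD 0.48) and are slightly narrower for the open circles of JUND (0.47 and 0.44). Of the 20 circles, 18 lie inside the bars, all but FOSB and the open circle of JUND at 0.56.

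The genes around the AP1 factors were read from lists of relatives, upstream kinases, partners and targets, again by the brightest probe set of each gene above the level threshold. With scaling to the poly-A controls the medians of all 6 lists lay above 0, so the signs are relative to the bulk of genes. Of the other bZIP factors that bind AP1-like or CRE-like sites, 19 of 26 could be read, with 5 higher, 13 lower and 1 equal, a median of -0.08 and 0 past 2-fold. With all probe sets of a gene averaged the split was 9 higher and 7 lower and the median turned to 0.02. NRL, a factor of photoreceptors, had -0.71 (5.54 with siCTR, 4.83 with siHLX) and BACH2, a repressor at AP1 sites in lymphocytes, -0.62 (5.27 and 4.65), both dim. BACH1 had 0.23 (9.36 and 9.59). ATF2, a dimer partner of JUN, had 0.30 (9.06 and 9.36) on its brightest and -0.26 on its next probe set, and 3.03% of like-level probe sets lay at least as far up as the former.

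Upstream, the MAP kinases and the kinases they activate had 10 higher and 10 lower among 20 readable genes of 28, with a median of 0.01 that turned to -0.02 both with all probe sets of a gene averaged and without _s_at and _x_at probe sets. MAPK8, the JUN N-terminal kinase JNK1, had -0.14 (8.34 with siCTR, 8.20 with siHLX), and of its other probe sets 3 read lower and 1 higher. MAPK10 (0.27) and MAP2K4, a kinase that activates JNK (0.25, from 8.39 to 8.64), had the highest values. The MAPK10 probe set was dim (5.76 with siCTR, 6.03 with siHLX), and 22.7% of like-level probe sets lay at least as far up. Its other probe sets, below the threshold, had -0.05 and -0.90. RPS6KA4, the kinase MSK2 that acts on histones and CREB at immediate early genes, had the lowest value of a brightest probe set, -0.86. It read 7.57 with siCTR and 6.71 with siHLX, and 0.0752% of the 3990 like-level probe sets lay at least as far down. Its other probe set, at a level of 3.71 below the threshold, read 0.79. RPS6KA2 had -0.38 on its brightest and -0.40 on its next probe set.

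The list of serum response and ETS factors, which switch on FOS and other immediate early genes, also held EGR1, EGR2 and EGR3, which are not such factors. It had 5 higher and 4 lower among 9 readable genes of 11, with a median of 0.02. EGR1 was among the lower ones on its brightest probe set (-0.07). Its dimmer probe sets had 0.57 and, below the threshold, -0.52. With all probe sets of a gene averaged, 2 were higher and 6 lower and the median turned to -0.11. SRF, the serum response factor, went from 8.38 to 8.04 (-0.34). Of like-level probe sets 3.97% lay at least as far down, while its dimmer probe set had 0.08. ELK4, an ETS partner of SRF, had -0.27 (9.62 and 9.35), with -0.82 to 0.13 over its 7 probe sets. ELK3 had 0.11, and ETS1 and MRTFA 0.04 each, on their brightest probe sets. Dimmer probe sets above the threshold had -0.47 for ELK3, 0.81 for ETS1, and -0.37 and 0.76 for MRTFA. FOS (-0.03), JUNB (-0.09) and JUN (-0.06) thus lay near 0 beside these readings, and FOSB at 0.49 did not, on its dim probe set.

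Of the partners of AP1 and BATF on composite sites, 6 of 8 could be read, with 2 higher and 4 lower and a median of -0.05, which turned to 0.03 with all probe sets of a gene averaged. IRF4, the partner of BATF and BATF3 in lymphocytes, read 9.91 with siCTR and 9.79 with siHLX on its brightest probe set, which is -0.12, and differed by 0.30 on a dimmer one. IRF8 read 9.59 and 9.62. NFATC1, which binds DNA next to FOS and JUN in activated T cells, went from 6.46 to 7.05 on its brightest probe set, a difference of 0.59, with -0.35 on the next one. NFATC2 lay below the threshold, and NFATC4 had -0.28 on a dim probe set. The other NFATC4 probe sets, below the threshold, had 0.68 and -0.05. Of the proteins that degrade JUN or work with it, 9 of 11 could be read, with 5 higher, 4 lower and a median of 0.01. The median turned to -0.06 with all probe sets of a gene averaged (3 higher, 5 lower) and to -0.09 without _s_at and _x_at probe sets (3 higher, 4 lower). ITCH and COP1, ubiquitin ligases of JUN proteins, had -0.21 and -0.10, and the coactivator CREBBP 0.10 and the deacetylase HDAC3 0.15. Dimmer CREBBP probe sets above the threshold had 0.0 and -0.55.

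Known target genes of AP1 had a median of 0.01, with 8 higher, 5 lower and 1 equal among the 14 of 27 that lay above the threshold. TNFRSF8, which encodes CD30 and is driven by JUNB in ALCL, read 9.92 on the siCTR array and 9.79 on the siHLX array, and 20.1% of like-level probe sets lay at least as far down. GZMB, the cytotoxic protease granzyme B and another JUNB target in ALCL, read 13.39 and 13.41. MYC, described as activated by BATF3, read 11.70 and 11.77. PDGFRB, a receptor gene driven by JUN and JUNB in ALCL, lay below the threshold with 4.65 and 4.69. The ends of the list were HMOX1, heme oxygenase, at -0.44 (8.08 and 7.64, with 1.74% of like-level probe sets at least as far down), and the metalloprotease gene MMP9 at 0.68 (4.69 and 5.37), which lay below the threshold with siCTR. TGFB1 had -0.21 on its brighter and 0.65 on its dimmer probe set, and VIM 0.14 and 0.48. ALK, the kinase gene of the fusion, read 12.47 and 12.45, and its other probe set had -0.13. STAT3, which the fusion kinase activates, read 11.49 and 11.55, and its dimmer probe sets had -0.02, 0.20 and 0.37.

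**Figure D4:**
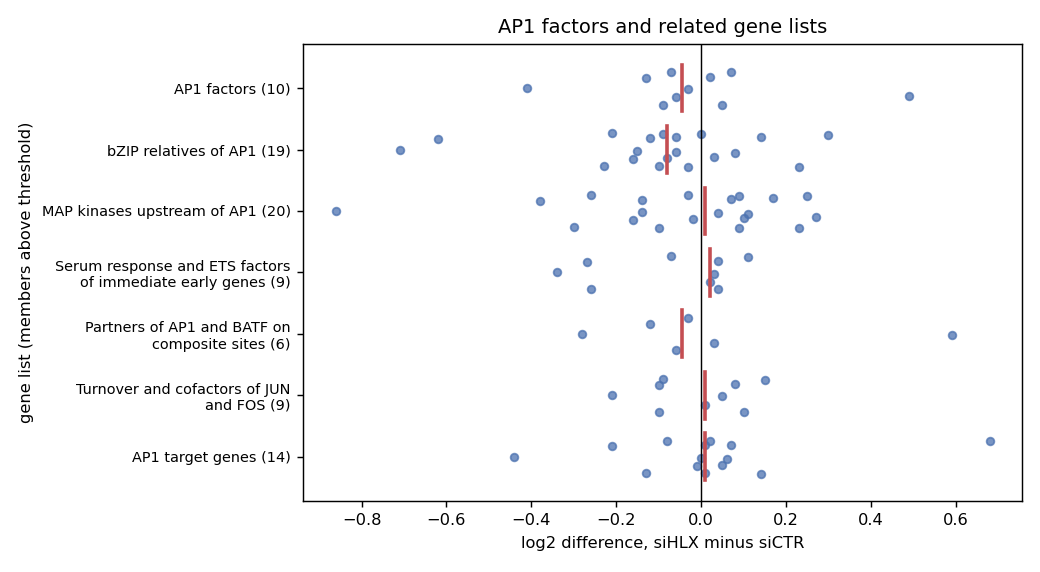
SiHLX minus siCTR in log2 units (x axis) of the AP1 genes and 6 related gene lists (y axis, with the number of genes read in parentheses); each point is a gene by its brightest probe set, the vertical spread within a list has no meaning, and red bars are medians. The medians lie between -0.08 for the bZIP relatives and 0.02 for the list of serum response, ETS and EGR factors, relative to the bulk of genes. With scaling to the poly-A controls they lie above 0 for all lists. The sign of 5 of the 6 related medians turns when all probe sets of a gene are averaged.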

How the data were processed

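Expression was measured in total RNA of SU-DHL-1 cells on 1 array for siCTR and 1 for siHLX, grouped by the treatment in the labels. Each array was deposited as log2 values with 2 decimals for every probe set, made by the authors with RMA background correction and quantile normalisation in R. The submitters' processing notes name RMA, affy and limma, with no version given in these sources. Quantile normalisation equalises the overall brightness of both arrays, so a difference is measured against the bulk of probe sets.

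Leaving out controls, 54613 probe sets remained. The annotation gave 1 gene for 41091, several for 1801 and none for 11721, and 41037 of the 41091 were matched to the RefSeq gene table of GRCh38.p14. The brightest probe set stood for a gene, which was counted when its mean over both arrays was at least 4.865, the median of all probe sets. Genes past 2-fold or 1.5-fold were counted, with no test. The text names all AP1 genes, HLX, a set of known partners and targets, and the extreme members of each list. Of the list members, 15 had no probe set of their own and were not analysed here. The AP1 genes, lists and rules were chosen with earlier results of these data known. Alternatives were median centring, scaling to poly-A controls, quantile normalisation, a lowess trend (fraction 0.2), the mean of all probe sets, only probe sets without _s_at or _x_at, and other level and fold limits. The steps were tested on simulated data. Python 3.11.15, pandas 2.3.3 and statsmodels 0.14.6 were used.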

Additional observations from a re-analysis of the deposited data

How the results depend on the processing

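When the poly-A controls were set equal on the arrays, the median difference of the AP1 genes was 0.24, with 9 genes higher and 1 lower, and 0 past 2-fold. JUN (0.23), JUNB (0.20), JUND (0.36), FOSL1 (0.16), FOSL2 (0.34), BATF (0.31), BATF3 (0.22), FOS (0.26) and FOSB (0.78) then read higher and BATF2 (-0.12) lower. FOSB thus lay past the 1.5-fold limit of 0.585 log2 units. With the level threshold at the 75th percentile, 6 AP1 genes were left, 3 higher and 3 lower, because the dim genes were no longer counted. Under median centring, quantile normalisation, removal of the lowess trend, averaging the probe sets of a gene, leaving out _s_at and _x_at, and no level threshold, the AP1 median stayed between -0.05 and -0.03, with 4 genes higher and 5 or 6 lower. JUN read 0.02 without _s_at or _x_at probe sets, and JUND then had no reading. Without a level threshold 134 genes read at least 2-fold higher and 140 lower, with the 75th percentile 2 and 1, with the mean of all probe sets 25 and 25, with poly-A scaling 178 and 13, and at 1.5-fold 302 and 310, against 54 and 47. No paired analysis was possible because there was 1 array per siRNA. Dim probe sets limit what can be read, since the SD of the differences was 0.46 at levels from 4 to 6 and 0.12 from 10 on. Below a level of 4 the SD was 0.34.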
